A study of Mus musculus with 10 samples.

Results

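Gene expression was compared between a pair of mouse bone marrow mesenchymal stromal cell preparations, named MSC II and MSC V. The comparison used the arrays titled with those names, replicates 1 and 2 of each, which are 4 of the 10 arrays of the study. The full set held 5 independent preparations with 2 arrays each. The arrays of MSC I, MSC III and MSC IV entered the fit to share 1 estimate of the spread. They also counted in the choice of the probe set for each gene and of the genes tested. All cells came from the marrow of female C57BL/6J mice aged 6 to 8 weeks, with no genetic change or added treatment named in the labels. They were at passage 16 to 17, late for primary cells, and were grown in MesenCult medium with a 20% mesenchymal supplement and antibiotics. The labels name neither preparation as a control, and they do not say whether the 2 arrays of a preparation came from separate cultures. If they did not, the p-values reflect technical variation between hybridisations and nothing more. In either case each side of the comparison is 1 preparation. The p-values therefore rest on the spread within preparations and do not measure variation between preparations or animals.

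Mesenchymal stromal cells are plastic-adherent cells of marrow with a fibroblast shape. They lay down collagen-rich matrix, can form bone, fat or cartilage in culture, and supply blood stem cells with anchoring and growth signals. Fibroblast-like cells also keep a record of their place in the body in the pattern of Hox genes they express, and this pattern can persist through long culture. Hox genes stand in clusters whose order along the chromosome follows the order of their domains along the body and the limb.

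Levels are RMA values on the log2 scale, so that a difference of 1 is a fold of 2. Differences are given as MSC II minus MSC V with the standard error (SE) of the limma fit, and adjusted p-values are Benjamini-Hochberg values over the 10971 genes tested. Called genes are those that combine an adjusted p below 0.05 with a difference of 1 or more in size. RMA compresses low values and the table carries no detection calls, so levels under the median of the table, 6.55, are low without being shown to be absent, and folds against them are values on the RMA scale. The arrays give levels per RNA sample, in which fewer cells expressing a gene and less of its RNA per cell cannot be told apart. With 2 arrays against 2, an exact permutation test could give no p below 0.3333, so no gene was tested in that way.

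Some abundant stromal genes were high in both preparations. Fibronectin (Fn1), the main adhesive glycoprotein of the matrix, measured 13.62 and 13.65 in the MSC II arrays and 13.65 and 13.78 in the MSC V arrays. Collagen I (Col1a1) measured 11.30 and 11.84 against 12.11 and 12.20, and the platelet-derived growth factor receptor Pdgfrb 11.26 and 11.88 against 11.95 and 12.22. None of these was called. Of 17 MSC surface markers with a probe set, 12 and 12 lay above 6.55 in the MSC II arrays and 13 and 12 in the MSC V arrays. Of 15 tested MSC surface markers 4 were called, and they are given with the lineage lists. Of 26 markers of blood cells with a probe set, 3 lay above 6.55 in each of the 4 arrays, and the pan-leukocyte marker Ptprc stood between 5.14 and 5.25. Of 4 tested blood markers, 1 was called lower in MSC II. The endothelial markers Pecam1 and Cdh5 stood between 4.88 and 5.11, and none of 16 endothelial markers passed 6.55 in any of the 4 arrays. Of 16 epithelial markers, 1 was tested, the keratin gene Krt19. It measured 6.71 and 5.79 in MSC II and 10.02 and 8.47 in MSC V. It was called lower (difference -2.99, adjusted p = 0.0249), and the difference ranged from -3.8 to -2.2 when 1 of these arrays was left out. That call did not hold without either MSC II array or without MSC V replicate 1. None of 13 housekeeping genes was called, with a median difference of 0.00475.

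Within a preparation the arrays correlated at r = 0.971 in MSC II and r = 0.971 in MSC V, across genes, and between the preparations at 0.908 to 0.926. In all, 610 of 10971 tested genes were called (5.56%), 258 of them higher in MSC II (2.35%) and 352 lower (3.21%). The median difference of all tested genes was 0.04. For all 610 called genes both arrays of MSC II lay on one side of both arrays of MSC V, a separation that 6433 of the 10971 tested genes showed. Differences of at least 3 were found for 33 genes higher and 28 genes lower in MSC II. Among the 258 higher genes, MSC II had the highest mean of the 5 preparations for 173, and MSC V had the lowest for 103. Among the 352 lower genes, MSC II had the lowest mean for 180 and MSC V the highest for 164. The counts moved with single arrays. Without MSC II replicate 2 there were 142 higher and 202 lower genes, without MSC II replicate 1 there were 217 and 199, and without MSC V replicate 1 there were 195 and 222.

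**Figure D1:**
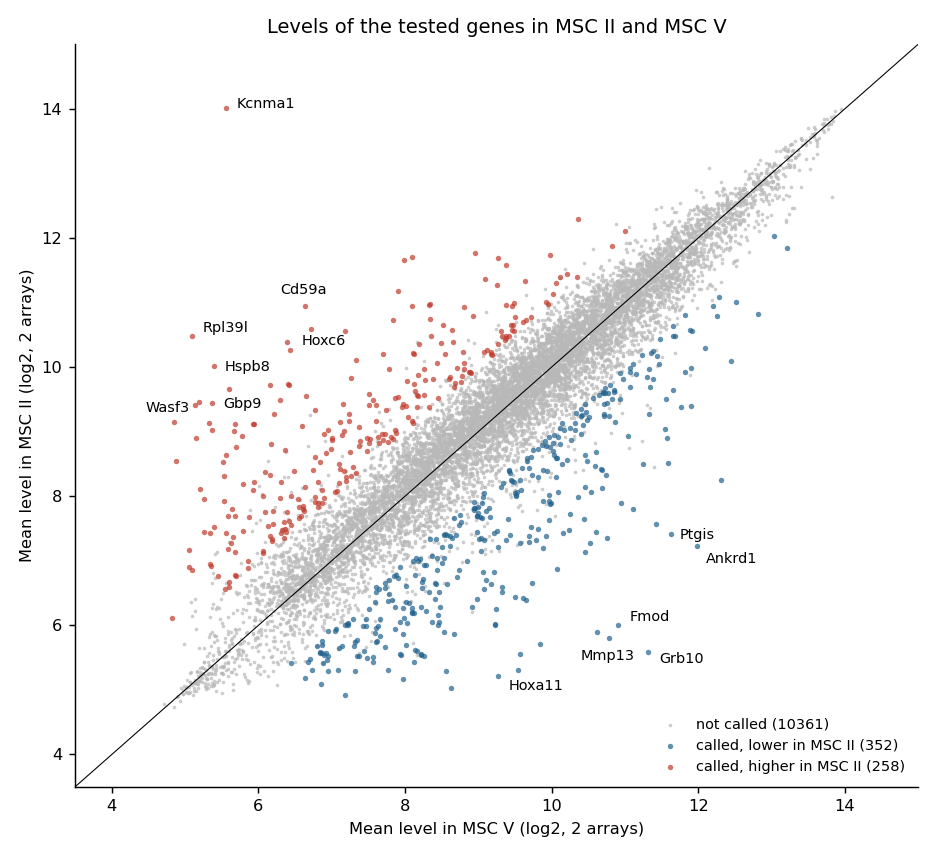
Mean level of each tested gene in MSC II (vertical axis, log2, mean of 2 arrays) against MSC V (horizontal axis, log2, mean of 2 arrays), with called genes in colour and the line of equal levels. Kcnma1 stands farthest above the line, with a difference of 8.44, and Grb10 farthest below it among the labelled genes, with -5.74.

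Of the 60 leading genes, the 30 with the largest difference in each direction, 51 were called in every one of the 10 fits that left out 1 array and tested the gene, and the members of the 60 described in the next paragraphs are among them. Some of these, 10 of 51, fell under the low-value filter in at least 1 of those fits. The exception is Cd200, described with the lineage lists, and Krt19, given above, is not among the 51 either. The largest difference was that of Kcnma1, which encodes the pore of the large-conductance, calcium- and voltage-activated potassium channel. Its level was 13.79 and 14.22 in MSC II, near the top of the range, and 5.61 and 5.52 in MSC V, near the bottom of the range. The difference of 8.44 ± 0.54 (SE) corresponds to a 348-fold higher value (adjusted p = 0.000254). MSC III was as high, with a mean of 13.83, whereas MSC I and MSC IV had means of 7.07 and 6.36. A second probe set of Kcnma1, with the lower mean, stood at 5.60 and 5.31 in MSC II and at 5.49 and 5.10 in MSC V, so the probe sets of this gene disagreed. With the mean of both probe sets the difference was 4.30 and the gene stayed called.

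The other potassium channel genes went both ways. Of 46 list members with a probe set, 15 passed the low-value filter, and 2 were called higher and 3 lower. That is 33.3% of the tested members, against 5.56% of all genes tested. Kcnmb4, an accessory beta subunit of the channel that Kcnma1 forms, measured 7.53 and 8.66 in MSC II and 6.12 and 5.72 in MSC V, a difference of 2.18 ± 0.43 (adjusted p = 0.0176). Leaving out MSC II replicate 2 (adjusted p = 0.0755), MSC V replicate 1 (0.0554) or MSC V replicate 2 (0.0741) ended this call, and so did a fit with each array centred within chromosomes. The beta subunits Kcnmb1 and Kcnmb2 were at or under 5.14 in all 4 arrays. Kcnn4, the intermediate-conductance calcium-activated channel, was the reverse of Kcnma1. It stood at 5.58 and 5.49 in MSC II and at 8.70 and 7.73 in MSC V, a difference of -2.68 ± 0.43 (adjusted p = 0.00902; 0.0512 without MSC II replicate 2). Kcnq5, a voltage-gated channel of slow kinetics, differed by -1.27 ± 0.15 (adjusted p = 0.00349), which came to -0.87 with centring within chromosomes, under the minimum for a call; it was not tested without either MSC V array. The higher count was 1 in each of the 3 fits that ended the Kcnmb4 call and 3 without either MSC III array, and the lower count ranged from 2 to 3 over the fits that left out 1 array.

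Several genes were near the bottom of the range everywhere except in MSC II. Rpl39l, a paralog of the ribosomal protein gene Rpl39, measured 10.40 and 10.55 in MSC II and 5.13 and 5.05 in MSC V. The difference was 5.38 ± 0.14 (adjusted p = 4.61e-06), and the means of MSC I, MSC III and MSC IV lay between 5.15 and 5.21. Because the paralogs are close in sequence, the share of signal that belongs to each is uncertain. Efhd1, a mitochondrial calcium-binding protein, stood at 9.54 and 9.27 against 5.14 and 5.13, a difference of 4.27 ± 0.13 (adjusted p = 9.10e-06). Plac8, a small cysteine-rich protein first described in placenta, stood at 9.62 and 9.29 against 5.26 and 5.12 (difference 4.27 ± 0.17, adjusted p = 2.84e-05). For all 3 genes the arrays of the preparations did not overlap, and the replicates of each preparation lay close together. Vax2, a homeobox gene of the ventral eye, showed the same order with 8.91 and 9.11 against 5.63 and 5.70 and a difference of 3.34 ± 0.12 (adjusted p = 2.62e-05). These 4 genes lie on chromosomes 16, 1, 5 and 6, in the order given, and passed the low-value filter through MSC II, so they were not tested when either of its arrays was left out.

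Hspb8 and Rbpms were low in MSC V and higher in all 4 other preparations. Hspb8, a small heat shock protein that takes part in the clearance of misfolded proteins, measured 10.25 and 9.79 in MSC II and 5.31 and 5.48 in MSC V, with means of 9.50, 8.47 and 9.62 in MSC I, MSC III and MSC IV. The difference was 4.62 ± 0.20, 24.6-fold (adjusted p = 3.70e-05). Rbpms, an RNA-binding splicing regulator, stood at 10.43 and 10.74 against 6.72 and 6.73 (difference 3.86 ± 0.19, adjusted p = 8.20e-05), with means of 12.01, 9.71 and 8.45 in the others. For the remaining genes of this paragraph MSC V was not alone at the low end. Cd59a, which blocks the membrane attack complex of complement, measured 11.002 and 10.876 against 6.87 and 6.41, a difference of 4.30 ± 0.18 (adjusted p = 3.61e-05), and MSC III had a mean of 6.89. Its paralog Cd59b differed by 0.79 ± 0.25 and was not called (adjusted p = 0.0746). Wasf3, a WAVE-family activator of branched actin assembly, stood at 9.26 and 9.03 against 4.70 and 4.99 (difference 4.29 ± 0.31, adjusted p = 0.000392). The family members Wasf1 and Wasf2 differed by 0.89 and 0.16 and were not called. Entpd1, the CD39 ectoenzyme that breaks down extracellular ATP, measured 8.46 and 8.82 against 5.58 and 5.55, and Enpp3, another nucleotide-hydrolysing ectoenzyme, 11.02 and 12.28 against 8.39 and 7.59. Their differences were 3.08 ± 0.23 (adjusted p = 0.000445) and 3.66 ± 0.41 (adjusted p = 0.00258).

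On the other side, Grb10, an imprinted adaptor that restrains insulin and IGF receptor signalling, had the largest difference. It measured 5.21 and 5.96 in MSC II and 11.50 and 11.14 in MSC V, a difference of -5.74 ± 0.37 or a 53.3-fold lower value (adjusted p = 0.000254). MSC I and MSC III were as low as MSC II, with means of 5.05 and 5.17, and MSC IV lay between at 8.12. Ankrd1, a nuclear ankyrin-repeat protein induced by mechanical load and by YAP, stood at 7.44 and 7.0 against 12.32 and 11.64, a difference of -4.75 ± 0.65 (adjusted p = 0.00525). Tnfrsf11b, the osteoprotegerin decoy receptor that holds back osteoclast formation, measured 8.68 and 8.34 against 11.44 and 11.72, a difference of -3.07 ± 0.29 (adjusted p = 0.00136). Its ligand Tnfsf11 (RANKL) was 6.36 and 6.72 against 6.72 and 6.36 and not called, and Csf1, the macrophage growth factor that acts with RANKL, was 11.73 and 11.59 against 11.66 and 11.69 and not called. Aldoc, the brain-type aldolase of glycolysis, was lower by a difference of -3.21 ± 0.43 (adjusted p = 0.00513), 1 of 2 lower and no higher calls among 31 tested glycolysis and hypoxia genes. That list had 6.45% of its tested members called, near the 5.56% of all genes tested. Of that list 1 was lower without MSC II replicate 1 (with 1 higher), MSC II replicate 2 or MSC V replicate 1, and 4 were lower and 2 higher without MSC V replicate 2.

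**Figure D2:**
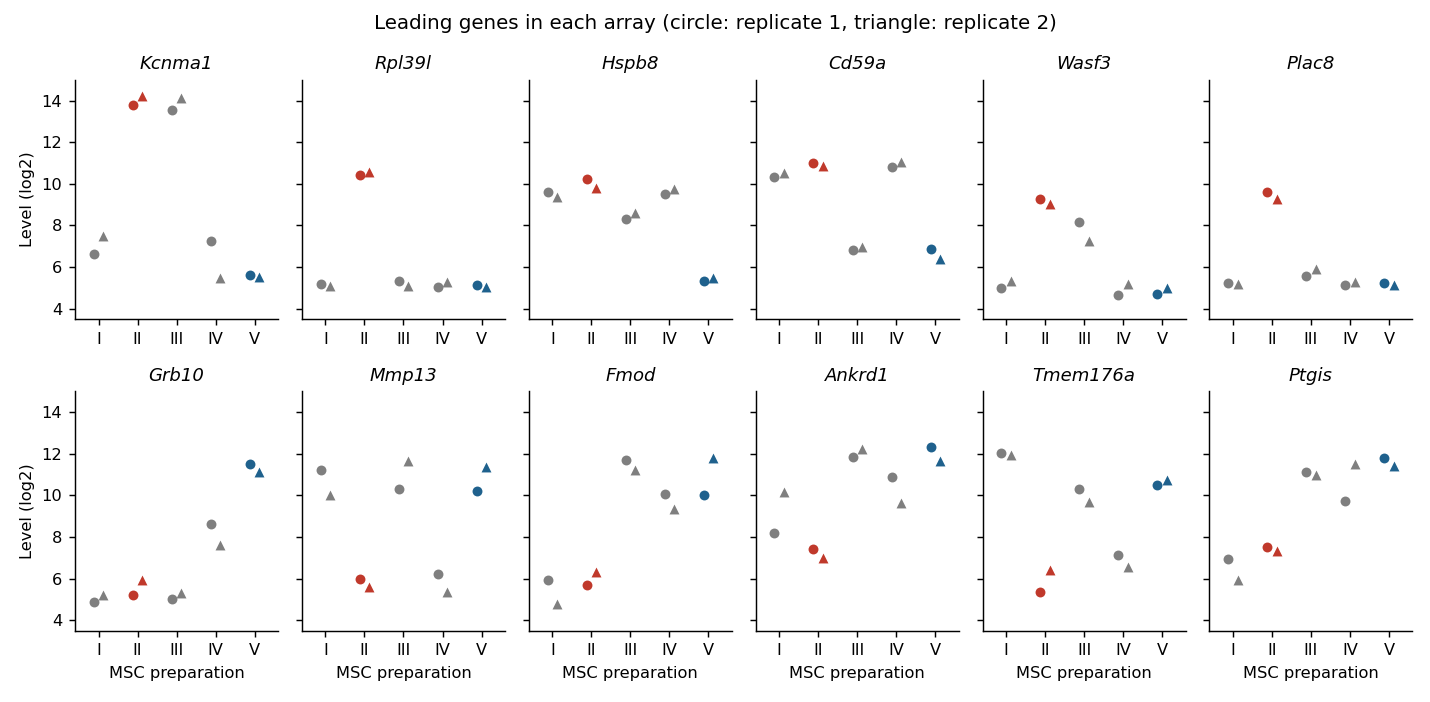
Level (log2, vertical axis) of 12 leading genes in each of the 10 arrays, by preparation (horizontal axis), with MSC II in red, MSC V in blue and the other preparations in grey. The upper row is higher and the lower row lower in MSC II, and for Rpl39l and Plac8 the MSC II arrays stand apart from all 8 others.

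Tmem176a and Tmem176b, neighbouring genes for 4-pass membrane proteins related to the MS4A family, were both lower in MSC II. Tmem176a measured 5.36 and 6.44 in MSC II and 10.49 and 10.74 in MSC V. Tmem176b measured 7.95 and 8.55 against 12.13 and 12.48. Neither gene's arrays overlapped, and MSC II was the lowest of the 5 preparations for both, with MSC IV next at 6.87 and 9.21. The differences were -4.71 ± 0.37 (adjusted p = 0.000560) and -4.06 ± 0.32 (adjusted p = 0.000535). Ms4a4d, the other tested member of the MS4A-like list, overlapped between the preparations and was not called (difference -1.02 ± 0.63). The genes lie head to head on chromosome 6, and the 108 bases between their nearest opposing RefSeq start sites are shown because both genes moved together. The stretch is chr6:48841375-48841482 of GRCm38.p6, plus strand, with Tmem176b to its left and Tmem176a to its right. Capitals mark GGAA, the core of ETS-factor motifs, on either strand (TTCC on the strand shown).
Tmem176b to Tmem176a: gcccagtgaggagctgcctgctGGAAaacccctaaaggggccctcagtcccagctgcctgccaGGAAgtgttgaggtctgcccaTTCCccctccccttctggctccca
The stretch holds 3 matches of GGAA on both strands together, and 69.6% of 32851 RefSeq promoter windows of the same length hold at least 1. The CCAAT box, searched as CCAAT on both strands, had no match in it, against 19.9% of those windows with one. The TATA box, searched as TATAAA on both strands, had none either (5.87% of windows). The same held for the GC box GGGCGG on both strands (25.5% of windows) and for the dinucleotide CG (80.5%). A match describes letters in this window only.

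The Hox genes gave a pattern by cluster. Hoxc genes were higher in MSC II, with 6 of 9 tested members called higher and none lower and a median difference of 2.18. In the Hoxb cluster 3 of 7 tested members were called higher and all 7 differences were above 0, with a median of 0.87. Only 4 of these 7 were tested when either MSC II array was left out. The rest passed the low-value filter through MSC II, so their differences could hardly be other than positive. Over all genes tested 2.35% were called higher and 3.21% lower. The Hoxa cluster was mixed, with 1 of 10 called higher and 2 lower and a median of 0.00304. Of 9 Hoxd genes with a probe set, 1 passed the low-value filter and it was not called. Without 1 array the Hoxc count went from 5 to 6, the Hoxb count from 2 (without MSC II replicate 2) to 4 (without MSC V replicate 1), and the lower Hoxa count from 1 to 2. Hoxa13 was not tested when either MSC V array was left out, and Hoxb4 was not tested when either MSC II array was.

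Within the Hoxc cluster the called members ran from Hoxc4 to Hoxc10. Hoxc6, a gene of the thorax and forelimb level, measured 10.08 and 10.45 in MSC II and 6.65 and 6.22 in MSC V, a difference of 3.83 ± 0.34 (adjusted p = 0.000924). Hoxc8 measured 9.50 and 9.95 against 6.18 and 6.14 (difference 3.56 ± 0.31, adjusted p = 0.000829), and Hoxc5 9.41 and 9.57 against 6.21 and 6.38 (difference 3.19 ± 0.21, adjusted p = 0.000260). Hoxc4 and Hoxc9 differed by 2.18 ± 0.18 and 2.77 ± 0.27 (adjusted p = 0.000782 and 0.00148). Hoxc10, associated with the hindlimb level, differed by 2.17 ± 0.40 (adjusted p = 0.0143), a call lost without MSC V replicate 2 (0.0603) or MSC II replicate 2 (0.0755). The last genes of the cluster, Hoxc11, Hoxc12 and Hoxc13, differed by -0.05 ± 0.18, 0.01 ± 0.33 and -0.50 ± 0.21, and none was called. For Hoxc6 MSC V was the low preparation: the means of MSC I, MSC III and MSC IV were 10.20, 8.34 and 8.85.

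The Hoxa cluster turned direction within a few genes. Hoxa9 measured 9.37 and 9.74 in MSC II and 6.41 and 6.88 in MSC V, a difference of 2.91 ± 0.27 (adjusted p = 0.00125). Its neighbour Hoxa10 overlapped, at 9.03 and 9.50 against 9.41 and 9.11. Hoxa11, a gene of the middle segment of the limb, was lower in MSC II, with 5.34 and 5.10 against 9.28 and 9.25, a difference of -4.05 ± 0.24 (adjusted p = 0.000212). Hoxa13, a gene of the hand, foot and hind end, measured 5.35 and 5.25 against 8.29 and 8.84 (difference -3.26 ± 0.19, adjusted p = 0.000212). Both stood near the bottom of the range in MSC II, and MSC V had the highest mean of the 5 preparations for both, followed by MSC III at 7.82 and 5.98. In the Hoxb cluster Hoxb9 measured 10.63 and 10.51 against 8.84 and 8.44, Hoxb2 8.45 and 9.01 against 7.29 and 6.68 and Hoxb4 7.30 and 7.24 against 5.55 and 5.72. Their differences were 1.93 ± 0.25, 1.74 ± 0.23 and 1.64 ± 0.12 (adjusted p = 0.00476, 0.00486 and 0.000314). For these 3 genes MSC II and MSC V were the highest and second of the 5 preparations.

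**Figure D3:**
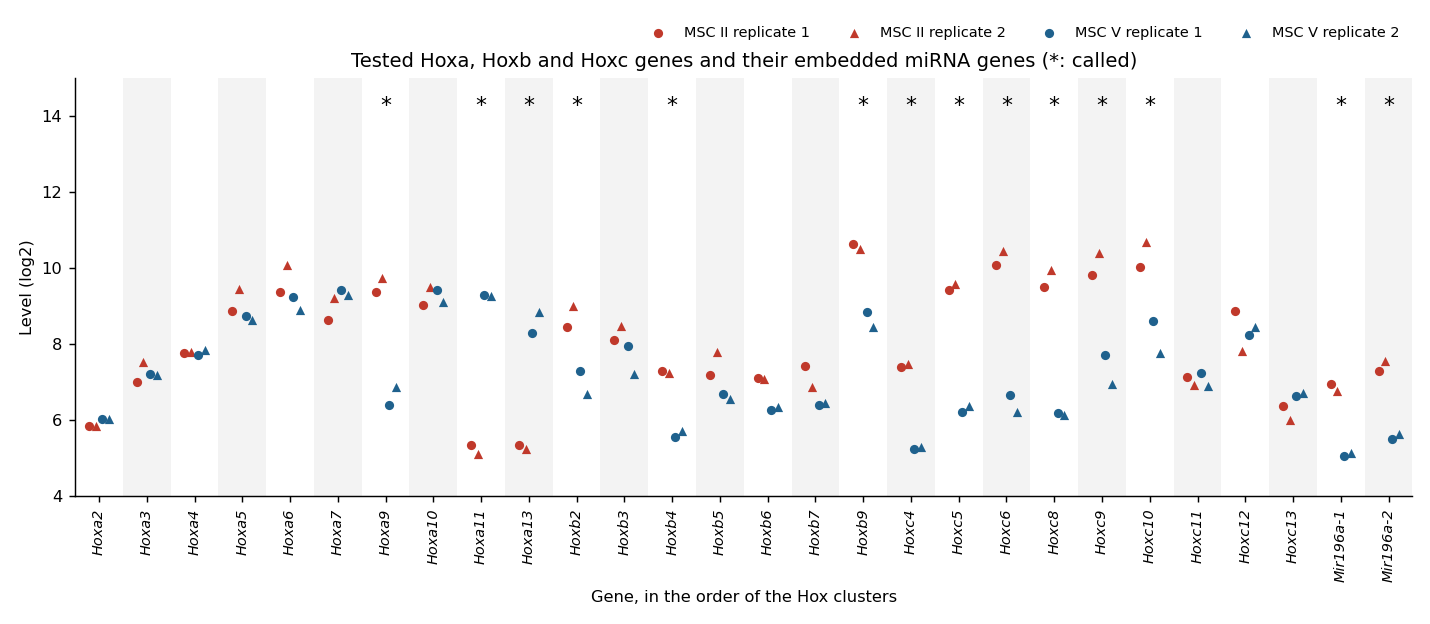
Level (log2, vertical axis) of the tested Hoxa, Hoxb and Hoxc genes and of Mir196a-1 and Mir196a-2 (horizontal axis, in cluster order) in the 4 arrays, MSC II in red and MSC V in blue, with asterisks over called genes. Red lies above blue from Hoxc4 to Hoxc10 and below it at Hoxa11 and Hoxa13.

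A family of miRNA genes lies inside the Hox clusters. These genes fall outside the rule for named genes and were chosen after their values were seen. Mir196a-1 in the Hoxb cluster on chromosome 11 and Mir196a-2 in the Hoxc cluster on chromosome 15 carry the same mature 5p strand, and Mir196b in the Hoxa cluster on chromosome 6 carries a near copy with the same seed. The sequences are shown, from RefSeq with the table's build GRCm38.p6, because this shared seed (bases 2 to 8, in capitals) is what the genes have in common. Of 74 tested miRNA genes, 62 were matched to that table by symbol.
miR-196a-5p: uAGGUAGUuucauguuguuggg
miR-196b-5p: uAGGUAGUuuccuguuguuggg
Counted from the 5′ end of miR-196a-5p, the sequences differ by A12C alone. Mir196a-2 measured 7.30 and 7.56 in MSC II and 5.50 and 5.63 in MSC V, a difference of 1.87 ± 0.18 (adjusted p = 0.00146). Mir196a-1 measured 6.95 and 6.77 against 5.06 and 5.12, a difference of 1.77 ± 0.12 (adjusted p = 0.000293). Neither gene's arrays overlapped. Mir196a-1 passed the low-value filter through MSC II and was not tested without either of its arrays. Mir196b stood at 6.24 and 6.47 against 6.01 and 6.10 and did not pass the low-value filter. These probe sets are assigned to the miRNA genes, and mature miRNA was not measured separately.

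Among 35 tested patterning factors outside the Hox clusters, 5 were called higher and 4 lower, with a median difference of 0.20. That is 25.7% of the list, against 5.56% of all genes tested. Pitx1, the hindlimb identity factor, measured 8.22 and 8.40 in MSC II and 5.32 and 5.74 in MSC V, a difference of 2.78 ± 0.20 (adjusted p = 0.000314). Meis2, a cofactor of Hox proteins, measured 10.44 and 9.98 against 8.07 and 8.16 (difference 2.10 ± 0.25, adjusted p = 0.00346). Foxf2, a forkhead factor of mesenchyme, was lower at 8.53 and 8.60 against 10.26 and 10.16 (difference -1.65 ± 0.14, adjusted p = 0.000829), and so was Pax9, a factor of the axial skeleton and jaw, at 5.02 and 5.16 against 6.82 and 6.89 (difference -1.77 ± 0.12, adjusted p = 0.000293). The general mesenchymal factor Prrx1 differed by -0.21 ± 0.14 and Twist1 by -0.18 ± 0.19, and neither was called. Crabp2, which carries retinoic acid to its nuclear receptors, was 1 called gene of 15 tested in the retinoic acid list, a share near that of all genes, at 10.85 and 10.64 against 8.63 and 8.04 (difference 2.41 ± 0.23, adjusted p = 0.00130). In the retinoic acid list 2 were higher without MSC V replicate 1, and 2 were lower without MSC V replicate 2. Pax9 was not tested without either MSC V array. The higher count of the patterning list was 2 without MSC II replicate 2, MSC V replicate 1 or MSC V replicate 2, and the lower count was 1 without MSC V replicate 1.

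Matrix genes were more often called lower than higher in MSC II. Of 60 tested matrix glycoproteins and proteoglycans, 9 were lower and 3 higher, with a median difference of -0.17. In all 20% were called, against 5.56% of all genes tested. Calls over all genes also leaned lower, with 3.21% lower and 2.35% higher. Fmod (fibromodulin), a proteoglycan that binds collagen fibrils in tendon and cartilage, measured 5.70 and 6.31 in MSC II and 10.03 and 11.79 in MSC V, a difference of -4.90 ± 0.61 (adjusted p = 0.00409). Smoc1, a secreted modulator of BMP signals, measured 6.06 and 6.74 against 9.93 and 9.36 (difference -3.25 ± 0.33, adjusted p = 0.00170). Mfap5, a microfibril glycoprotein, and Fbln2, a fibulin of elastic fibres, were lower by differences of -1.94 ± 0.22 and -1.30 ± 0.20 (adjusted p = 0.00254 and 0.00837). In the other direction, Lama2, the laminin chain of muscle basement membrane, measured 9.14 and 9.15 against 7.10 and 7.12 (difference 2.04 ± 0.14, adjusted p = 0.000314). Emilin2, another elastic-fibre glycoprotein, was higher by 1.77 ± 0.29 (adjusted p = 0.00967). The count of lower members ranged from 7 to 11 and that of higher members from 2 to 4 when 1 array was left out. The abundant matrix genes Sparc and Bgn differed by -0.20 ± 0.14 and -0.32 ± 0.11 and were not called.

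Of 18 tested collagens, 4 were called lower and 1 higher (27.8%, against 5.56% of all genes tested), with a median difference of -0.47. Col4a1 and Col4a2, neighbouring genes that together encode the common form of basement membrane collagen IV, moved alike. Col4a1 measured 6.30 and 6.50 in MSC II and 8.46 and 8.35 in MSC V, and Col4a2 6.44 and 6.58 against 8.43 and 8.22. The differences were -2.0 ± 0.21 and -1.81 ± 0.20 (adjusted p = 0.00214 and 0.00250). Col6a5, a chain of collagen VI, was the higher one, at 7.76 and 9.32 against 5.03 and 4.72 (difference 3.66 ± 0.47, adjusted p = 0.00461). A second probe set of Col6a5 gave a difference of 1.17 in the same direction. The fibrillar collagens Col1a1 and Col1a2 differed by -0.58 ± 0.30 and -0.53 ± 0.21 and were not called. The count of lower collagens was 2 without MSC V replicate 2 or MSC II replicate 1, and Col6a5 was not tested without either MSC II array. The higher count was 0 without MSC II replicate 2 and 2 without either MSC I array.

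The matrix proteases gave 4 genes higher and 1 lower of 29 tested (17.2%, against 5.56% of all genes tested). The lower one was Mmp13, the collagenase of bone and cartilage turnover, at 6.00 and 5.60 in MSC II and 10.22 and 11.35 in MSC V, a difference of -4.98 ± 0.60 (adjusted p = 0.00354). MSC IV was as low, with a mean of 5.79. Mmp11 (stromelysin 3) was higher at 11.18 and 10.74 against 9.17 and 9.57 (difference 1.59 ± 0.19, adjusted p = 0.00337). Adamts3, a procollagen-processing protease, was higher by 2.49 ± 0.39 (adjusted p = 0.00902; 0.0551 without MSC II replicate 2). Adamts3 has 16 probe sets on the array, and all gave a positive difference, from 1.67 to 3.58. The gelatinase Mmp2 and the membrane protease Mmp14 differed by -0.03 ± 0.23 and -0.24 ± 0.19 and were not called. The count of higher proteases was 1 without MSC II replicate 2, and that of lower ones was 3 without MSC V replicate 1.

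Genes of attachment went both ways. Of 24 tested integrins and adhesion molecules, 6 were lower and 2 higher in MSC II (33.3%, against 5.56% of all genes tested). Itga11, the collagen-binding integrin of fibroblasts, measured 8.58 and 9.48 in MSC II and 11.59 and 11.51 in MSC V (difference -2.51 ± 0.31, adjusted p = 0.00358). Itgbl1, a secreted protein with integrin-like repeats, measured 5.39 and 5.23 against 8.97 and 10.12 (difference -4.23 ± 0.35, adjusted p = 0.000731), and the means of the other 4 preparations lay between 5.09 and 5.34; it was not tested without either MSC V array. Cadm1, an immunoglobulin-type cell adhesion molecule, measured 6.13 and 5.87 against 9.11 and 9.34 (difference -3.23 ± 0.32, adjusted p = 0.00164). Itga7, a laminin-binding integrin, was higher with Lama2, at 8.44 and 8.37 against 7.10 and 6.40 (difference 1.66 ± 0.25, adjusted p = 0.00736). The broadly used subunits Itgb1, Itga5 and Itgav differed by -0.04, 0.07 and -0.02 and were not called. Among 13 tested cadherins and protocadherins, 3 were lower and 1 higher (30.8%). Cdh13, a cadherin without a cytoplasmic domain, measured 5.53 and 5.57 against 9.40 and 9.73, a difference of -4.01 ± 0.37 (adjusted p = 0.00119). Cdh18 measured 5.16 and 4.91 against 8.27 and 8.98 (difference -3.59 ± 0.23, adjusted p = 0.000254), with all other preparations between 4.97 and 5.12. Its second probe set differed by -1.75. Without any 1 of the 4 arrays, 3 adhesion molecules were called lower and 1 higher, and the higher count was also 1 without either MSC III array. With arrays centred within chromosomes 3 were lower and 1 higher. The count of lower cadherins was 1 without either MSC V array, where Cdh18 was not tested, and no cadherin was higher without MSC V replicate 2 or MSC II replicate 2. The clustered protocadherins of the Pcdhb family, cell-recognition molecules that are not in that list, went the other way. Of 10 tested Pcdhb genes, 5 were called higher in MSC II (Pcdhb14, Pcdhb15, Pcdhb16, Pcdhb19 and Pcdhb21) and none lower. Pcdhb14 measured 7.65 and 8.25 against 6.29 and 6.79, a difference of 1.41 ± 0.28 (adjusted p = 0.0180), and Pcdhb16 8.63 and 9.19 against 7.48 and 7.78, a difference of 1.28 ± 0.26 (adjusted p = 0.0194). None of the 5 calls held without MSC V replicate 1 or MSC II replicate 2, and the close sequences of these genes make the share of each uncertain.

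Of 38 tested guidance genes, 4 were called higher and 6 lower (26.3%, against 5.56% of all genes tested). Epha3 and Epha7, ephrin receptors that repel migrating cells and axons, were both lower. Epha3 measured 5.63 and 5.78 in MSC II and 9.11 and 10.57 in MSC V (difference -4.14 ± 0.46, adjusted p = 0.00254), and Epha7 5.30 and 5.05 against 7.64 and 8.30 (difference -2.80 ± 0.22, adjusted p = 0.000509). Nrp2, a co-receptor for semaphorins and VEGF-C, was lower at 8.11 and 8.71 against 10.58 and 10.78 (difference -2.28 ± 0.23, adjusted p = 0.00166). Plxnc1, a semaphorin receptor, and Sema3e, a secreted semaphorin, were higher, with 8.22 and 7.69 against 5.00 and 5.50 and 9.03 and 9.03 against 7.37 and 6.52. Their differences were 2.71 ± 0.28 and 2.08 ± 0.31 (adjusted p = 0.00183 and 0.00746). Srgap1, a GTPase-activating protein that acts below Robo receptors and a leading gene outside this list, was higher by 3.17 ± 0.19 (adjusted p = 0.000220). The count of higher guidance genes was 1 without MSC II replicate 2, where Plxnc1 was not tested (nor was it without MSC II replicate 1), and that of lower ones was 3 without MSC V replicate 1.

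Secreted and surface signals showed single large differences within lists that mostly were not called. In the angiogenic list 5 of 23 tested genes were lower and none higher (21.7%, against 5.56% of all genes tested). The list had a median difference of -0.73, against 0.04 for all genes. Angpt2, a ligand that modulates the Tie2 receptor of vessels, measured 6.10 and 6.12 in MSC II and 7.75 and 8.22 in MSC V (difference -1.87 ± 0.17, adjusted p = 0.00114), and Vegfa differed by 0.20 ± 0.20 and was not called. Sfrp1, a secreted Wnt antagonist counted in this list and among 16 Wnt antagonists and targets, measured 7.04 and 7.66 against 11.13 and 10.37 (difference -3.40 ± 0.39, adjusted p = 0.00280). Those 16 held 1 higher and 2 lower genes (18.8%). The higher call was lost without either array of MSC I or MSC III, MSC II replicate 2 or MSC V replicate 2, and 1 was lower without MSC II replicate 2. Of 22 tested Wnt ligands and receptors 2 were higher and 3 lower (22.7%). Lgr6, a receptor for R-spondins, which amplify Wnt signals, measured 5.70 and 5.16 against 8.02 and 8.22 (difference -2.69 ± 0.23, adjusted p = 0.000782), and the Wnt co-receptor Lrp5 was lower by a difference of -1.08 ± 0.14 (adjusted p = 0.00511). Neither higher call of the Wnt receptor list held without MSC V replicate 2 or MSC II replicate 2. Erbb4, a neuregulin receptor not tested without either MSC II array, was higher at 8.22 and 10.01 against 6.03 and 5.82 (difference 3.19 ± 0.53, adjusted p = 0.0105). In the IGF list 2 of 19 were higher and 3 lower (26.3%). Igf2bp1 and Igf2bp3, oncofetal proteins that bind Igf2 and other mRNAs, were lower, at 7.54 and 7.23 against 9.92 and 9.92 and 7.47 and 7.18 against 9.66 and 9.90. Their differences were -2.54 ± 0.37 and -2.46 ± 0.25 (adjusted p = 0.00701 and 0.00164). Igf2 itself was called higher (difference 1.67 ± 0.41, adjusted p = 0.0339), a call lost without any 1 of the 4 arrays, with adjusted p from 0.0785 (without MSC V replicate 2) to 0.139 (without MSC V replicate 1). No IGF gene was higher without MSC II replicate 2 or either MSC V array.

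**Figure D4:**
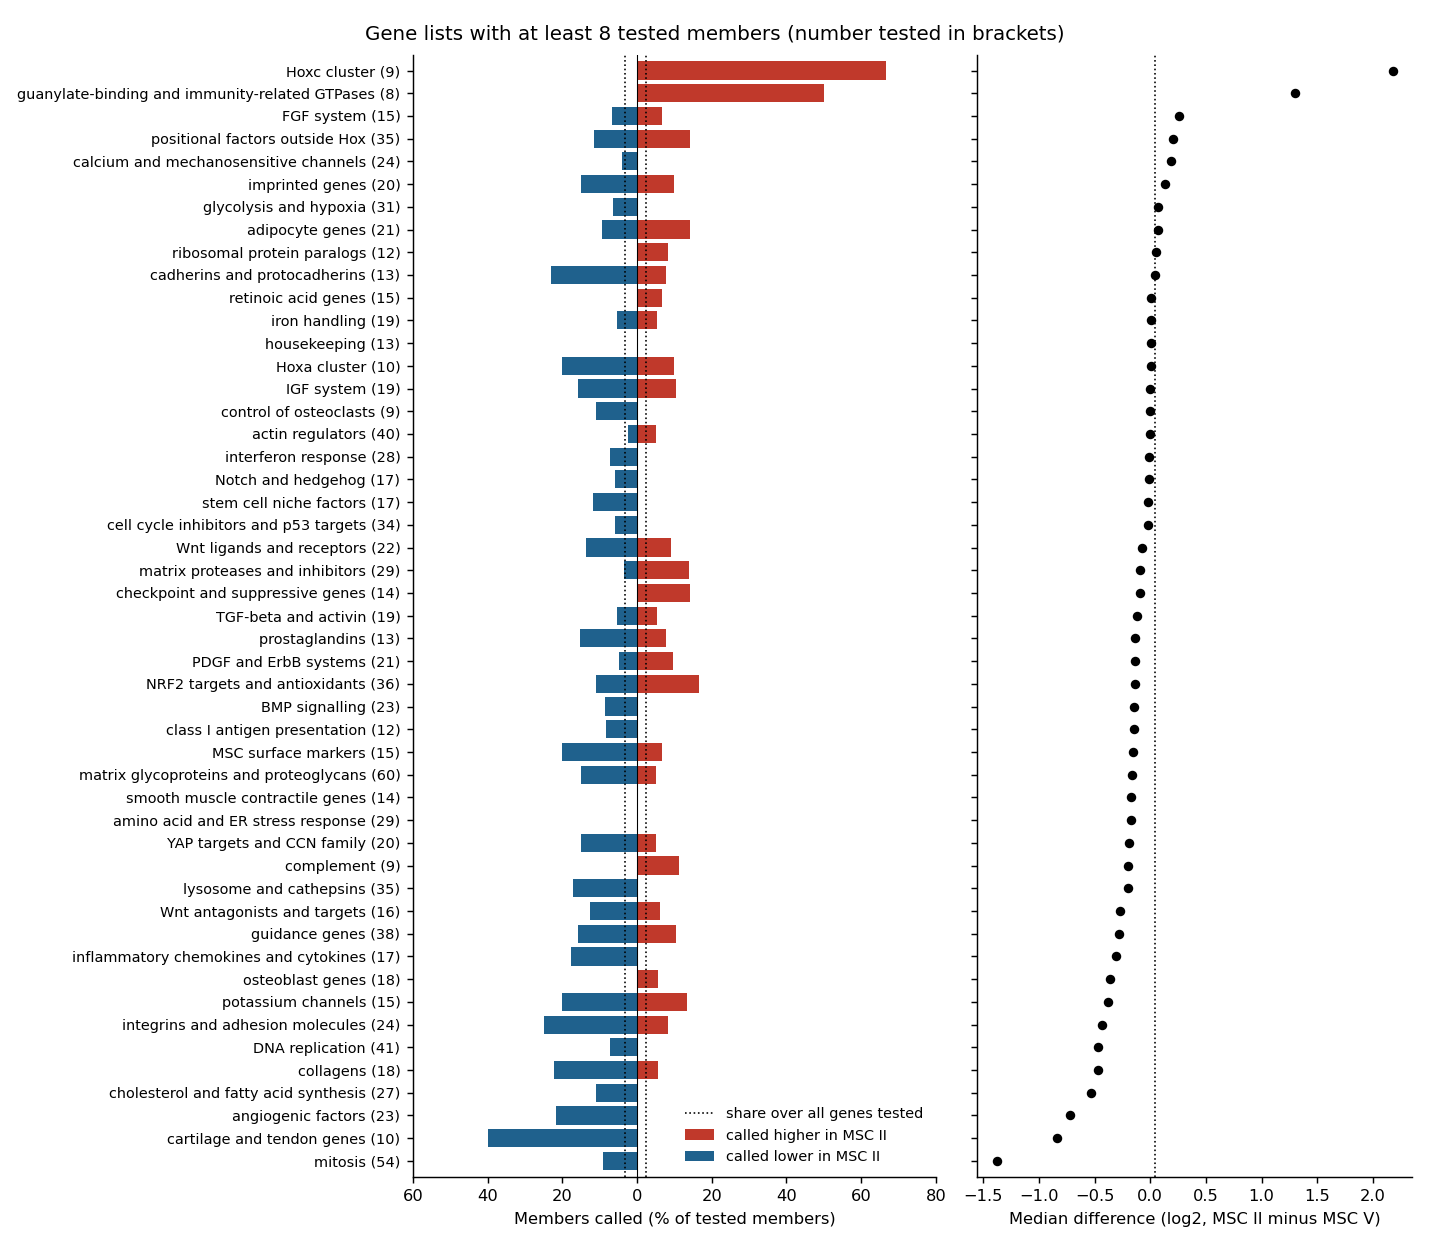
Gene lists with at least 8 tested members (vertical axis), with the share of members called higher (red, to the right) or lower (blue, to the left) in MSC II in percent on the left, dotted lines at the shares over all genes tested (2.35% and 3.21%), and on the right the median difference (log2, MSC II minus MSC V), with a dotted line at the median of all genes tested, 0.04. The Hoxc cluster lies at the top with a median of 2.18 and the mitosis list at the bottom with -1.38.

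Transcripts of 2 terminal prostaglandin synthases differed in opposite directions. Ptges, which makes prostaglandin E2, measured 9.30 and 10.17 in MSC II and 6.83 and 5.97 in MSC V (difference 3.33 ± 0.42, adjusted p = 0.00448). Ptgis, which makes prostacyclin, measured 7.51 and 7.32 against 11.82 and 11.42 (difference -4.20 ± 0.54, adjusted p = 0.00457). The arrays did not overlap for either enzyme. Ptgs2, the inducible cyclooxygenase that feeds both, overlapped at 10.67 and 9.73 against 12.04 and 10.15 and was not called. Hpgd, which degrades prostaglandins, was called lower (adjusted p = 0.0366), a call lost without any 1 of the 4 arrays (adjusted p from 0.0738 without MSC II replicate 1 to 0.149 without MSC II replicate 2) or either MSC III array. The other 10 of 13 tested members were not called.

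The guanylate-binding proteins, interferon-inducible GTPases of cell-autonomous defence, included 4 genes on chromosome 5 with a high level in MSC II alone. They passed the low-value filter through the MSC II arrays, so a tested member there could hardly be other than higher. Gbp9 measured 9.33 and 9.56 in MSC II and 5.38 and 5.37 in MSC V, a difference of 4.07 ± 0.19 (adjusted p = 5.45e-05). Gbp4 measured 7.63 and 8.57 against 5.35 and 5.06, Gbp8 7.87 and 7.73 against 5.53 and 5.74 and Gbp11 6.75 and 7.06 against 5.04 and 5.06. Their differences were 2.90 ± 0.29, 2.17 ± 0.17 and 1.86 ± 0.14 (adjusted p = 0.00160, 0.000535 and 0.000395). They were not tested when either MSC II array was left out, and their close sequences make the share of each uncertain. On chromosome 3, Gbp3 and Gbp7 differed by -0.27 ± 0.14 and -0.16 ± 0.17 and were not called. Of 28 tested genes of the interferon-response list, none was higher and 2 were lower, with a median difference of -0.00791. The share called was 7.14%, near the 5.56% of all genes tested. The lower ones were the antiviral genes Ifit1 and Ifit3, with differences of -1.90 ± 0.33 and -1.54 ± 0.28 (adjusted p = 0.0115 and 0.0138), and both calls were lost without MSC II replicate 2 (adjusted p = 0.0651 and 0.0570). The Ifit1 call was also lost without MSC V replicate 1 (0.0501), and the Ifit3 call without MSC V replicate 2 (0.0576) or MSC II replicate 1 (0.0660). Of 17 tested chemokines and cytokines 3 were lower, and none was called without MSC V replicate 1 or MSC II replicate 1. The niche chemokine Cxcl12 measured 11.97 and 12.88 against 12.37 and 12.50 and was not called.

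Most cell cycle genes had a lower mean in MSC II, with a wide spread between replicates. All 54 tested genes of the mitosis list had a negative difference, with a median of -1.38, and 5 of them were called (9.26%, against 5.56% of all genes tested). The median level of the list was 7.50 and 8.87 in the MSC II arrays and 10.2 and 8.81 in the MSC V arrays, so by this measure MSC II replicate 2 lay just above MSC V replicate 2. The mean level of the list was 7.88 and 8.89 against 10.29 and 9.12, with both MSC II arrays below both MSC V arrays. The called genes were Kif14, Kif23, Cenpk, Spc24 and Aspm, which serve the spindle and the kinetochore. Aspm, a spindle pole protein, measured 5.39 and 6.71 against 9.09 and 7.84, a difference of -2.41 ± 0.58 (adjusted p = 0.0337). No mitosis gene was called without MSC II replicate 1 (median difference -0.77) or MSC V replicate 1 (-0.74), 8 were called without MSC V replicate 2 (-1.92), 3 without MSC II replicate 2 (-1.91), 2 without either MSC I array, and none with centring within chromosomes (-1.30). The DNA replication list had 39 of 41 differences below 0, a median of -0.47 and 3 called genes (7.32%, near the share of all genes tested). Its median was -0.29 without MSC II replicate 1 and -0.73 without MSC II replicate 2. It was -0.04 without MSC V replicate 1 and -0.97 without MSC V replicate 2. The proliferation marker Mki67 measured 8.07 and 9.57 against 11.07 and 10.10 and was not called (adjusted p = 0.121). Ccnd1, the cyclin of early G1, was called in every fit that left out 1 array, at 10.72 and 11.16 against 12.25 and 12.14 (difference -1.26 ± 0.19, adjusted p = 0.00736). The cyclin-dependent kinase inhibitor Cdkn2a differed by 0.17 ± 0.19 and was not called. Whether the mitosis values take part in other differences was not tested.

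Lysosomal genes were called in 1 direction and redox genes in both. Of 35 tested lysosome and cathepsin genes, 6 were lower and none higher (17.1%, against 5.56% of all genes tested). The median difference was -0.20. Ctsc, a protease that activates serine proteases, measured 5.43 and 5.81 in MSC II and 8.35 and 7.93 in MSC V (difference -2.52 ± 0.32, adjusted p = 0.00461). Cd68, a lysosomal glycoprotein used as a macrophage marker, measured 7.31 and 7.52 against 8.53 and 8.55 (difference -1.12 ± 0.17, adjusted p = 0.00736). The macrophage genes Csf1r and Itgam stood at 5.37 or less in all 4 arrays. The lower count was 3 without MSC V replicate 2 or MSC II replicate 2. Of 36 tested NRF2 targets and antioxidant genes, 6 were higher and 4 lower (27.8%). Gsta4, a glutathione transferase for lipid peroxidation products, measured 11.18 and 11.16 against 7.81 and 7.99 (difference 3.27 ± 0.38, adjusted p = 0.00302), and Sod3, the extracellular superoxide dismutase, 6.15 and 6.72 against 9.53 and 9.47 (difference -3.07 ± 0.43, adjusted p = 0.00573). Nqo1, Hmox1 and Gclc, classical NRF2 targets, differed by -0.72, -0.44 and -0.23 and were not called. Without MSC II replicate 2 the higher count was 1, and without MSC V replicate 2 or MSC II replicate 1 the lower count was 1.

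Lineage lists differed in how many members were called, against 5.56% of all genes tested. Of 18 tested osteoblast genes 1 was higher, the surface glycoprotein gene Cd200, a call lost without either MSC II array or MSC V replicate 1. Of 14 smooth muscle genes none was called, and 1 was higher without MSC II replicate 1. Of 10 tested cartilage and tendon genes 4 were lower, with Fmod the largest and Mkx, a tendon homeobox factor, at 5.67 and 5.32 in MSC II and 7.11 and 7.84 in MSC V (difference -1.98 ± 0.28, adjusted p = 0.00573). That count was 2 without MSC II replicate 2 or either MSC V array. Of 21 adipocyte genes 3 were higher and 2 lower, and no count was stable: none was higher without MSC II replicate 1, MSC II replicate 2 or MSC V replicate 1, and none lower without MSC V replicate 1 or MSC II replicate 1. Pparg, the master factor of fat cells, differed by -0.54 ± 0.27 and was not called. None of 29 genes of the amino acid and ER stress response was called, and 1 was lower without MSC V replicate 2 or MSC II replicate 1. Of 27 genes of cholesterol and fatty acid synthesis 3 were lower, with a median difference of -0.54, and none was called without any 1 of the 4 arrays or with centring within chromosomes. Of 20 YAP targets and CCN family genes 3 were lower, Ankrd1 among them, and 1 was higher; the lower count was 1 without either MSC V array, and the higher call was lost without any array of MSC II, MSC III, MSC IV or MSC V and with arrays centred on medians or within chromosomes. Of 15 MSC surface markers Thy1 was higher and Alcam, Mcam and Cd9 lower, with no higher call without MSC II replicate 2 or either MSC V array and no lower call without MSC V replicate 1 or MSC II replicate 1.

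Of 20 tested imprinted genes, 2 were called higher and 3 lower, with 1 higher without MSC V replicate 1 or with centring within chromosomes. Beside Grb10, Slc38a4, an amino acid transporter, was lower at 5.66 and 5.72 in MSC II and 7.42 and 6.86 in MSC V (difference -1.45 ± 0.23, adjusted p = 0.00856). Xist, the RNA that coats and silences 1 X chromosome in female cells, measured 12.45 and 12.13 against 10.47 and 10.24 (difference 1.94 ± 0.17, adjusted p = 0.000909). Both preparations stood far above the low-value level, and MSC IV had a mean of 9.67, below MSC V. The 353 tested genes of the X chromosome had a median difference of -0.15, with 9 called higher and 17 lower. Their share called, 7.37%, was near the 5.56% of all genes tested.

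The differences were unevenly spread over the chromosomes. On chromosome 10, 89.95% of 547 tested genes had a higher value in MSC II, with a median difference of 0.51, and 52 genes were called higher and 1 lower. On chromosome 13, 7.98% of 426 genes had a higher value in MSC II, with a median of -0.54, and 54 genes were called lower and 2 higher. Chromosome 1 had a median of -0.38 with 51 genes lower and 7 higher, and chromosome 9 a median of -0.27 with 36 lower and 10 higher. Chromosomes 14 and 5 had medians of 0.32 and 0.24. Together chromosomes 1, 9, 10 and 13 held 213 of the 610 called genes (34.9%) and 20.2% of the tested genes.

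These shifts were alike in the replicates. Relative to the mean over all 10 arrays, the median deviation of the chromosome 10 genes was 0.42 and 0.44 in the MSC II arrays and -0.07 and -0.10 in the MSC V arrays. For chromosome 13 it was -0.34 and -0.36 in MSC II and 0.21 and 0.18 in MSC V. For chromosome 1 it was -0.17 and -0.26 against 0.15 and 0.22. The preparations did not overlap on any of these 3 chromosomes, nor on any other except chromosomes 3, 6 and 15. That separation alone does not mark a large shift. On chromosome 2 it held with -0.119 and -0.125 in MSC II against -0.134 and -0.133 in MSC V. The shifts ran along whole chromosomes: with the tested genes of a chromosome in 6 consecutive groups, the medians ranged from 0.42 to 0.59 on chromosome 10, from -0.61 to -0.45 on chromosome 13 and from -0.56 to -0.25 on chromosome 1. On chromosome 9 the first group stood at -0.65 and the other groups between -0.29 and -0.19. On chromosome 2 the whole median was -0.00196, but the first 4 groups lay between 0.13 and 0.20 and the last 2 at -0.32 and -0.35. DNA content was not analysed here.

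**Figure D5:**
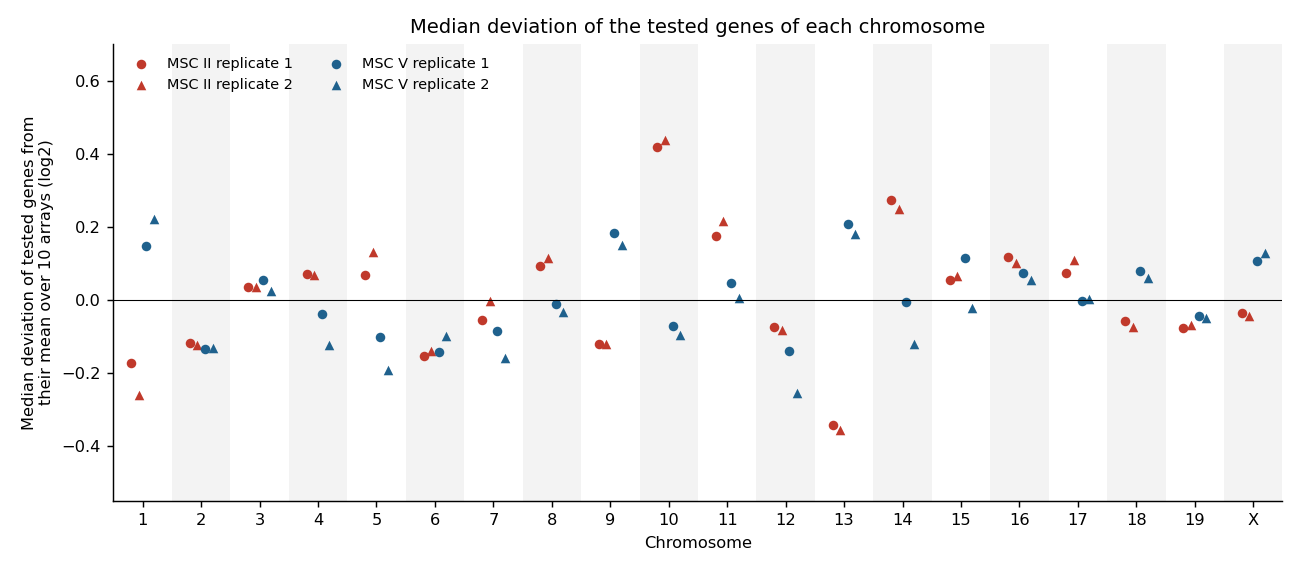
Median deviation of the tested genes of each chromosome (horizontal axis) from their mean over 10 arrays (vertical axis, log2) in the 4 arrays, MSC II in red and MSC V in blue. The preparations stand farthest apart on chromosomes 10 and 13, with the replicates of each close together.

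With each array centred within each chromosome, an alternative chosen after the data were seen, 409 genes were called (3.73%), 178 higher and 231 lower, and 377 of them were called in the same direction without it. Chromosomes 1, 9, 10 and 13 then held 79 calls. Of the 60 leading genes 58 stayed called. List counts also moved: 2 patterning factors were lower, 1 chemokine or cytokine was lower, 1 adipocyte gene was higher and 1 lower, 2 NRF2 or antioxidant genes were lower, and no MSC surface marker was lower. Among the genes of chromosome 10 described above, Enpp3, Lama2 and Itga7 differed by 3.15, 1.52 and 1.14 after this centring (adjusted p = 0.00516, 0.00122 and 0.0359). Of chromosome 13, Pitx1 stood against the direction of its chromosome, and Foxf2 differed by -1.10 after the centring (adjusted p = 0.00358).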

How the data were processed

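Total RNA of 10 arrays, 2 for each of 5 preparations, was measured on an Affymetrix expression array with biotin label. The authors deposited 1 table of log2 values for 35399 probe sets; RMA and Partek are named per the submitters' processing notes, and versions and the build of the probe annotation were not given in the sources used here. The platform annotation gave 1 symbol for 21789 probe sets, several for 1621 and none for 11989; 21698 of the first were matched to reference gene names, giving 19938 genes. A gene with several probe sets was represented by the one with the highest mean over 10 arrays. Genes above the median of the table, 6.55, in at least 2 of 10 arrays were tested (10971). limma 3.58.1 in R 4.3.3 fitted the 5 preparations together with lmFit and eBayes, without trend, and the Benjamini-Hochberg adjustment covered all tested genes. The procedure was tested on simulated data. Arrays carry no depth, and their number limits the precision. Named genes were the 30 largest differences in each direction among called genes, without predicted names, the members of 58 gene lists, and families with 3 or more called genes. The compared preparations and the lists were chosen with earlier results of these data known. Alternatives covered the filter, probe set rule, normalization, samples, replicate number and leaving out each array; the fits with a crossed replicate block and with arrays centred within each chromosome were chosen after seeing the data.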

Additional observations from a re-analysis of the deposited data

How the results depend on the processing

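None of the 204 named genes that passed the test reversed its direction under any of 22 refitted settings. These genes were named because they were called in the same data with a difference of 1 or more, which made a reversal unlikely. Of the 204, 83 lost their call with the 4 arrays alone and 144 with a replicate block added to those 4. With arrays centred within each chromosome 53 lost it. The 610 called genes (258 higher, 352 lower in MSC II) became 345 (130 and 215) with the low-value filter raised to the 75th percentile, 304 (129 and 175) with the 4 arrays alone, 1575 (782 and 793) without a minimum difference and 182 (80 and 102) with a minimum of 2. With 1 array left out the counts ranged from 344 to 590 called, 142 to 250 higher and 199 to 340 lower. Arrays centred within each chromosome, chosen after seeing the data, gave 409 (178 and 231). The counts stayed within 1.5 times without a filter (521), with the mean of probe sets (601), arrays centred on medians (628, 33.4% of them higher against 42.3%), quantile normalization (620) and a trended, robust fit (617). The deviations of same-numbered MSC II and MSC V arrays correlated at r = -0.351 across genes, and those of MSC II and MSC III at 0.203. With 2 arrays a preparation, such values cannot show whether arrays of equal number shared a culture or day. The labels do not say it either. The fit with the replicate block gave 424 calls over 10 arrays and 81 (39 and 42) over the 4 arrays, and the crossed pairing, chosen after seeing the data, 776 (310 and 466). Of 54 mitosis genes, 5 of them called lower, these 3 fits called 1, 0 and 41 lower. Without the low-value filter the chromosome medians were -0.12 (chromosome 1), 0.0932 (5), -0.0806 (9), 0.20 (10), -0.21 (13) and 0.0680 (14), because genes at low level enter. With arrays centred on medians they were -0.35 (9), 0.43 (10) and -0.63 (13). Signal near the low-value level limits folds and calls there.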
